A study of Mus musculus with 31 samples.

Results

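The miR-99, miR-100 and miR-125 families were followed in mouse lung as 5 mature miRNAs, mmu-miR-99a-5p, mmu-miR-100-5p, mmu-miR-99b-5p, mmu-miR-125a-5p and mmu-miR-125b-5p, named below without the species prefix, of 650 named miRNAs on the array. They were taken by name, by a rule that used no measured value, but with earlier results of these data known. Each had 2 probes, 10 of 1857 probes in all. Lungs came from female BALB/c mice that had breathed smoke from cigarettes, or room air in the control groups, over 4, 6, 8 or 12 weeks, a model of chronic obstructive pulmonary disease. The 31 single-colour arrays, labelled with Cy3, formed 8 groups, 15 smoke arrays and 16 control arrays, with 4 arrays in each group except smoke at 12 weeks, which had 3. Every group was the same strain and sex, whole lung was used, and no source used here gave the ages of the mice or the dose of smoke. The labels number the replicates of a group without saying that each is another mouse, so the p-values speak of array to array spread, part of which may be technical.

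A mature miRNA guides the silencing complex to messenger RNAs, mainly through its seed, the stretch near its 5′ end that pairs with the target. The miR-99 and miR-100 miRNAs are known for restraining growth signalling through mTOR, and the miR-125 miRNAs are the vertebrate relatives of lin-4, the first miRNA described in Caenorhabditis elegans. In mammals both families lie beside let-7 genes in 3 clusters. Both are abundant in mesenchymal and haematopoietic cells as well as in whole lung, so a whole-lung level sums over many cell types. A lower level from fewer cells of a type and one from less RNA per cell cannot be told apart in such samples.

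The mature sequences, from RefSeq for build GRCm38.p6, matched all 5 names and fell into 2 seed groups. They are printed from 5′ to 3′ with the seed, bases 2 to 8, in capitals, because the seed splits the members into families and the remaining bases are what the probes must tell apart.
miR-99a-5p: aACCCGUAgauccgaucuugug
miR-100-5p: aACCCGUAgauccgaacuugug
miR-99b-5p: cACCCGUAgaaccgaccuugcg
miR-125a-5p: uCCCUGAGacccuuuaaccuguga
miR-125b-5p: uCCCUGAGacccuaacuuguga
miR-10a-5p: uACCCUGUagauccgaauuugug
Positions are counted from 1 at the 5′ end of the first named miRNA. miR-99a-5p and miR-100-5p were identical at 21 of 22 bases and differed by U16A. miR-99a-5p and miR-99b-5p were identical at 18 of 22 bases and differed by A1C, U11A, U16C and U21C. miR-125a-5p and miR-125b-5p shared 21 of 24 aligned positions, with C19U and 2 unpaired bases. miR-10a-5p, shown as the nearest relative outside the family, aligned with miR-100-5p at 20 of 23 positions with 1 inserted base and had another seed. How far the probes of such close sequences took up each other's target was not tested.

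The hairpin genes all lay on the plus strand of GRCm38.p6. On chromosome 16, Mir99a (chr16:77598936-77599000), Mirlet7c-1 (chr16:77599657-77599750) and Mir125b-2 (chr16:77646273-77646343) spanned 47408 bp. On chromosome 9, Mir100 (chr9:41531425-41531504), Mirlet7a-2 (chr9:41536716-41536811) and Mir125b-1 (chr9:41581926-41582002) spanned 50578 bp inside the long noncoding RNA gene Mir100hg. On chromosome 17, Mir99b (chr17:17830188-17830257), Mirlet7e (chr17:17830352-17830444) and Mir125a (chr17:17830812-17830879) lay within 692 bp inside the protein-coding gene Spaca6. Mature miR-125b-5p is the same molecule from Mir125b-1 and Mir125b-2, so its signal sums the chromosome 9 and chromosome 16 loci.

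Before scaling, the 75th percentile of processed signal over the probes detected on all arrays ran between 1018 and 3725, and it averaged 1516 in smoke against 2692 in control lungs at 8 weeks. On the leading component of the 207 miRNAs detected on every array, smoke replicates 2 and 3 of 4 weeks stood highest (9.12 and 4.84). Control replicate 4 of 4 weeks stood lowest (-5.28), with smoke replicates 3 and 2 of 8 weeks next lowest (-4.26 and -3.84). The striated muscle miRNAs were highest in smoke replicate 3 of 8 weeks and in control replicates 1 and 4 of 4 weeks. Smoke arrays sat in row 1 and control arrays in row 2 of every slide, and each duration had its own column, so position on the slide and group cannot be told apart. The 4 slides each held arrays of up to 8 groups.

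All 5 miRNAs were detected on all 31 arrays with both probes, and none of their spots was saturated. Levels below are log2 of the processed signal over each array's 75th percentile, with the brighter probe of each miRNA, so they compare arrays and not miRNAs. A difference was called at an adjusted p of 0.05 or less in limma, with Benjamini-Hochberg adjustment over the 273 miRNAs tested. Across the 8 groups the mean level moved little for each member, from a whole range of 0.36 for miR-125a-5p to 0.48 for miR-125b-5p on the log2 scale.

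**Figure D1:**
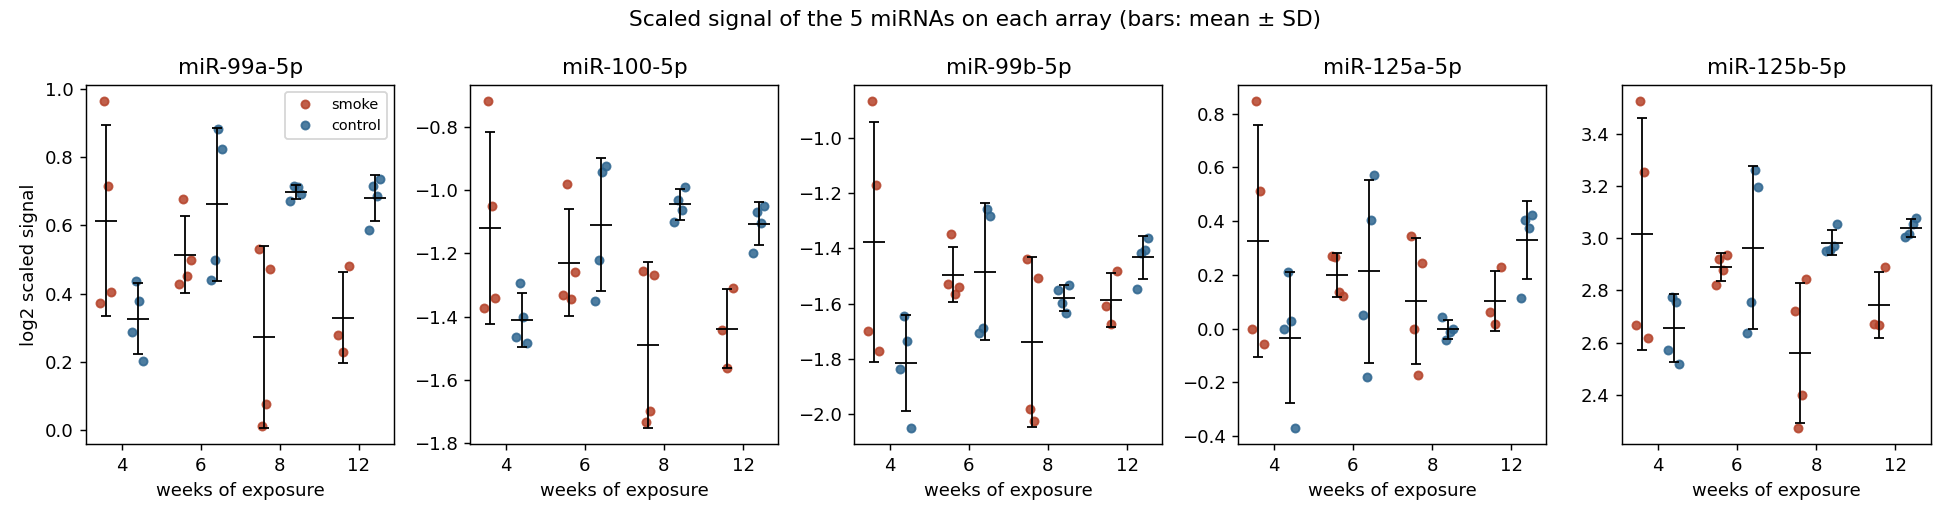
Log2 scaled signal (vertical axis) of each of the 5 miRNAs on every array, by weeks of exposure (horizontal axis), smoke left of control. Points are arrays and bars are mean ± SD (n = 4, or 3 for smoke at 12 weeks); miR-99a-5p, miR-100-5p and miR-125b-5p lie lower in smoke than in control at 8 and 12 weeks with no overlap, and the 4 weeks smoke groups spread widely.

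Of the 3 miRNAs of the miR-99 and miR-100 family, 1 rose after 4 weeks of smoke and 2 fell after 8 weeks. Of all 273 tested miRNAs, 28.2% were called higher in smoke at 4 weeks and 7.33% lower at 8 weeks. At 8 weeks miR-99a-5p fell by 25.5% and miR-100-5p fell by 26.5%, and both were called, while miR-99b-5p did not pass. At 4 weeks miR-99b-5p rose 1.36-fold and was called, while miR-99a-5p and miR-100-5p missed the threshold. At 6 and 12 weeks none of the 3 passed. All of these differences are small, under 1.5-fold.

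miR-99a-5p had log2 levels of 0.37, 0.96, 0.72 and 0.40 in smoke lungs at 4 weeks, against 0.29, 0.44, 0.38 and 0.20 in control lungs. At 8 weeks it had 0.53, 0.01, 0.08 and 0.47 in smoke lungs, against 0.67, 0.72, 0.71 and 0.69 in control lungs. At 4 weeks smoke replicates 2 and 3 were above every control and the other two lay among them, whereas at 8 weeks all 4 smoke arrays were below all 4 controls. The difference was 0.29 ± 0.12 (SE) at 4 weeks (adjusted p = 0.0657, limma) and -0.43 ± 0.12 at 8 weeks (adjusted p = 0.0216, limma), with a 95% interval of -0.68 to -0.17. At 8 weeks 11% of the 273 tested miRNAs were called, 7.33% as lower in smoke, and 12.1% had every smoke array below every control. The median difference of all tested miRNAs was 0.17 at 4 weeks and -0.05 at 8 weeks.

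miR-99a-5p at 6 weeks had 0.43, 0.68, 0.45 and 0.50 in smoke lungs, against 0.44, 0.50, 0.88 and 0.82 in control lungs. At 12 weeks it had 0.28, 0.23 and 0.48 in smoke lungs, against 0.59, 0.71, 0.69 and 0.73 in control lungs. The 6 weeks groups overlapped, with control replicates 3 and 4 high, and the 12 weeks groups did not overlap, as for 25.6% of tested miRNAs that were lower in smoke. The difference was -0.15 ± 0.12 at 6 weeks (adjusted p = 0.574, limma) and -0.35 ± 0.13 at 12 weeks (adjusted p = 0.102, limma), against 8.06% and 9.52% of tested miRNAs called.

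miR-100-5p, the near-identical relative encoded on chromosome 9, followed miR-99a-5p closely. It had -1.25, -1.73, -1.70 and -1.27 in smoke lungs at 8 weeks, against -1.10, -1.03, -1.06 and -0.99 in control lungs. Every smoke array was below every control, with replicates 2 and 3 lowest. The difference was -0.44 ± 0.13 (adjusted p = 0.0215, limma), with a 95% interval of -0.71 to -0.18. At 4 weeks it had -1.37, -0.72, -1.05 and -1.34 in smoke lungs, against -1.46, -1.29, -1.40 and -1.48 in control lungs. Again smoke replicates 2 and 3 alone were above every control, and the difference was 0.29 ± 0.13 (adjusted p = 0.0709, limma).

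At 6 weeks miR-100-5p had -1.33, -0.98, -1.34 and -1.26 in smoke lungs, against -1.35, -1.22, -0.94 and -0.92 in control lungs. At 12 weeks it had -1.44, -1.56 and -1.31 in smoke lungs, against -1.20, -1.07, -1.10 and -1.05 in control lungs. The groups overlapped at 6 weeks and not at 12 weeks. The differences were -0.12 ± 0.13 (adjusted p = 0.658, limma) and -0.33 ± 0.14 (adjusted p = 0.123, limma).

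miR-99b-5p, which shares the seed but lies with miR-125a on chromosome 17, gave the one call at 4 weeks. It had -1.70, -0.87, -1.17 and -1.77 in smoke lungs, against -1.84, -1.64, -1.73 and -2.05 in control lungs. Smoke replicates 2 and 3 were above every control and replicates 1 and 4 lay within the control range. The difference was 0.44 ± 0.16 (adjusted p = 0.0327, limma), with a 95% interval of 0.11 to 0.76. At 4 weeks 39.6% of tested miRNAs were called, 28.2% higher in smoke, so 1 of 5 members called was no larger a share than the background. Without smoke replicates 2 and 3 the difference was 0.08 (adjusted p = 0.874, limma). Leaving out any one of smoke replicate 2 (0.27, adjusted p = 0.211), smoke replicate 3 (0.37, 0.112), control replicate 1 (0.43, 0.0653) or control replicate 4 (0.36, 0.116) also ended the limma call.

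At 8 weeks miR-99b-5p had -1.44, -1.98, -2.02 and -1.51 in smoke lungs, against -1.55, -1.60, -1.64 and -1.53 in control lungs. Smoke replicates 1 and 4 were above every control and replicates 2 and 3 below every control, so the groups overlapped. The difference was -0.16 ± 0.16 (adjusted p = 0.646, limma), with a 95% interval of -0.48 to 0.17 that still holds the size seen for miR-99a-5p. At 6 weeks it had -1.53, -1.35, -1.56 and -1.54 in smoke lungs, against -1.71, -1.69, -1.26 and -1.28 in control lungs (difference -0.01 ± 0.16). At 12 weeks it had -1.61, -1.68 and -1.48 in smoke lungs, against -1.55, -1.42, -1.41 and -1.36 in control lungs (difference -0.16 ± 0.17, adjusted p = 0.612, limma). The groups overlapped at both of these durations.

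The 8 weeks calls for miR-99a-5p and miR-100-5p rested on few arrays. Without smoke replicate 2 the differences were -0.34 and -0.36 (adjusted p = 0.124 and 0.118, limma), without smoke replicate 3 they were -0.36 and -0.37 (0.0924 for both), and without control replicate 2 they were -0.42 and -0.44 (0.0545 and 0.0536). Leaving out control replicate 3 ended the call of miR-99a-5p (adjusted p = 0.0520, limma) and leaving out control replicate 4 that of miR-100-5p (adjusted p = 0.0537, limma). Each slide held 1 smoke and 1 control array of 8 weeks. Since every smoke array lay below every control, both miRNAs had to be lower in smoke on each slide. The size on a slide was 0.14 to 0.70 for miR-99a-5p and 0.15 to 0.70 for miR-100-5p.

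The miR-125 family had no call at any duration in the reported fit. The difference of miR-125b-5p had the sign of that of miR-99a-5p at each duration, as did those of miR-100-5p and miR-99b-5p. At 8 weeks miR-125a-5p differed by 0.11 ± 0.17, against -0.42 ± 0.16 for miR-125b-5p. In mice and humans miR-125b is studied mainly as a regulator of blood cell development and of the p53 pathway.

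miR-125b-5p had 2.67, 3.52, 3.25 and 2.62 in smoke lungs at 4 weeks, against 2.57, 2.78, 2.76 and 2.52 in control lungs. At 8 weeks it had 2.72, 2.27, 2.40 and 2.84 in smoke lungs, against 2.95, 2.95, 2.97 and 3.05 in control lungs. Smoke replicates 2 and 3 were above every control at 4 weeks, and at 8 weeks every smoke array was below every control, replicates 2 and 3 the furthest. The difference was 0.36 ± 0.16 at 4 weeks (adjusted p = 0.0709, limma) and -0.42 ± 0.16 at 8 weeks (adjusted p = 0.0902, limma; 95% interval -0.75 to -0.10). On the slides it was lower in smoke at 8 weeks by 0.21 to 0.68, a direction that the lack of overlap already fixed. miR-125b-5p was called at 8 weeks without smoke replicate 4 of 8 weeks (-0.52, adjusted p = 0.0368, limma) or smoke replicate 2 of 4 weeks (0.0387), in fits that called 15% and 13.2% of tested miRNAs. Under other processing it was called at 8 weeks in 5 of 19 settings, in fits that called 15.4% to 74.4% of tested miRNAs.

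At 6 weeks miR-125b-5p had 2.82, 2.92, 2.88 and 2.94 in smoke lungs, against 2.64, 2.76, 3.26 and 3.20 in control lungs. At 12 weeks it had 2.67, 2.67 and 2.89 in smoke lungs, against 3.00, 3.02, 3.05 and 3.08 in control lungs. The smoke arrays of 6 weeks lay inside the control range, and those of 12 weeks below it. The differences were -0.07 ± 0.16 (adjusted p = 0.867, limma) and -0.30 ± 0.17 (adjusted p = 0.282, limma).

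miR-125a-5p had 0.00, 0.85, 0.51 and -0.06 in smoke lungs at 4 weeks, against 0.00, 0.21, 0.03 and -0.37 in control lungs. At 8 weeks it had 0.34, 0.00, -0.17 and 0.24 in smoke lungs, against 0.04, -0.04, -0.01 and 0.00 in control lungs. The smoke arrays spread to both sides of the tight 8 weeks controls. The difference was 0.36 ± 0.17 at 4 weeks (adjusted p = 0.0853, limma) and 0.11 ± 0.17 at 8 weeks (adjusted p = 0.794, limma; 95% interval -0.24 to 0.45).

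At 6 weeks miR-125a-5p had 0.27, 0.27, 0.14 and 0.12 in smoke lungs, against 0.05, -0.18, 0.41 and 0.57 in control lungs. At 12 weeks it had 0.06, 0.02 and 0.23 in smoke lungs, against 0.12, 0.40, 0.38 and 0.42 in control lungs. Both pairs of groups overlapped. The differences were -0.01 ± 0.17 and -0.23 ± 0.18 (adjusted p = 0.986 and 0.443, limma). At 4 weeks, miR-99a-5p, miR-100-5p, miR-125a-5p and miR-125b-5p were all called once smoke replicate 1 was left out (differences 0.37 to 0.48, adjusted p = 0.0207 to 0.0301, limma) or smoke replicate 4 (0.36 to 0.49, 0.0139 to 0.0283). In the same fits 53.5% and 54.9% of tested miRNAs were called. On the slides all 5 members were higher in smoke at 4 weeks on 4 of 4 and lower at 12 weeks on 3 of 3. The smallest of these differences was 0.003, for miR-125a-5p on slide 1 at 4 weeks. For miR-99a-5p, miR-100-5p and miR-125b-5p the direction at 12 weeks was already fixed, since those groups did not overlap. The share of all tested miRNAs with the same direction on every slide was not computed. Their median difference between the groups was 0.17 at 4 weeks and -0.08 at 12 weeks.

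Averaged over the 4 durations, none of the 5 members was called in limma, against 27.8% of tested miRNAs. At an unadjusted p under 0.05, 5, 0, 3 and 2 of the 5 members stood at 4, 6, 8 and 12 weeks and 2 averaged, beside 142, 54, 65, 70 and 109 of the 273 tested. The averaged difference was -0.16 ± 0.06 for miR-99a-5p (adjusted p = 0.0617), -0.15 ± 0.07 for miR-100-5p (0.0828) and -0.11 ± 0.08 for miR-125b-5p (0.354) in limma. It was 0.03 ± 0.08 for miR-99b-5p (adjusted p = 0.830) and 0.06 ± 0.09 for miR-125a-5p (0.664), the 2 members of the chromosome 17 cluster. Without smoke replicates 2 and 3 of 4 weeks, the averaged differences of miR-99a-5p, miR-100-5p and miR-125b-5p were -0.22, -0.21 and -0.20 and were called (adjusted p = 0.00499, 0.00676 and 0.0169, limma), as were 36.6% of tested miRNAs. The averaged call of miR-99a-5p also appeared when any 1 of 7 arrays was left out, smoke replicate 2 of 4 weeks, control replicates 1 and 2 and smoke replicate 2 of 6 weeks, smoke replicates 1 and 4 of 8 weeks or smoke replicate 3 of 12 weeks (-0.19 to -0.17, adjusted p = 0.0140 to 0.0471, limma). That of miR-100-5p appeared without smoke replicate 2 of 4 weeks (-0.18, adjusted p = 0.0164, limma) or of 6 weeks (-0.17, 0.0478).

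**Figure D2:**
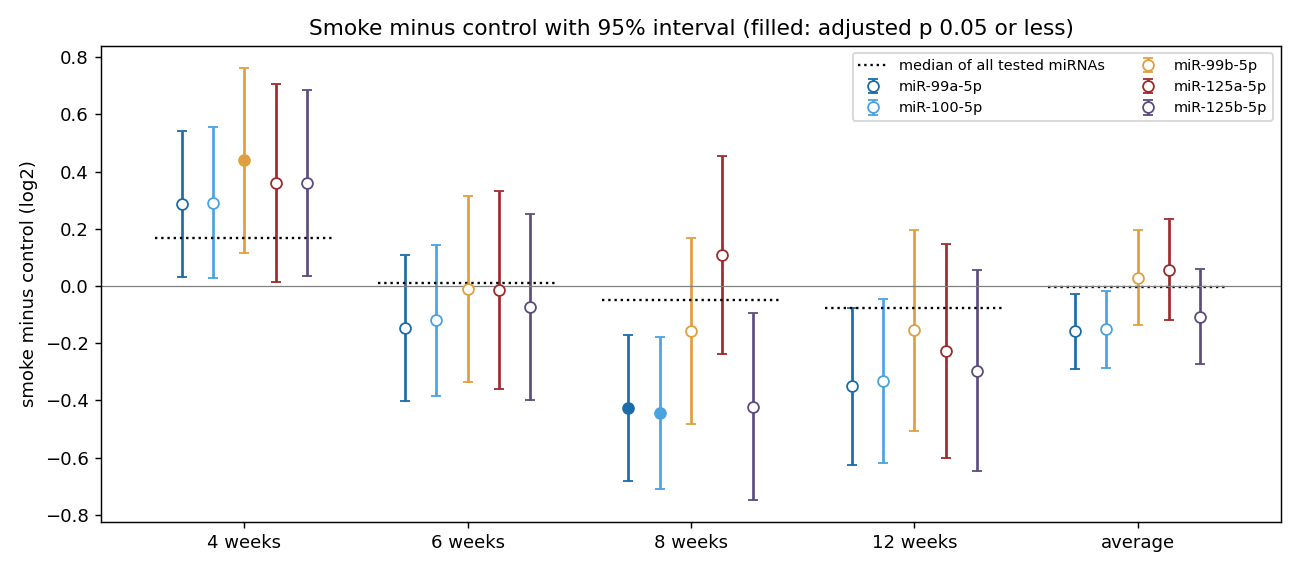
Difference in log2 scaled signal, smoke minus control (vertical axis), of the 5 miRNAs at each duration and averaged, with 95% intervals from limma. Filled points were called, dotted lines give the median of the 273 tested miRNAs; all 5 members lie above 0 at 4 weeks, and at 8 weeks miR-99a-5p, miR-100-5p and miR-125b-5p lie between -0.44 and -0.42 while miR-125a-5p lies at 0.11.

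Whether the smoke effect itself differed between durations was tested next. In the F test over 4 durations, miR-99a-5p and miR-100-5p were called (adjusted p = 0.0363 and 0.0412, limma), against 7.33% of tested miRNAs. miR-125b-5p, miR-99b-5p and miR-125a-5p were not (adjusted p = 0.0761, 0.136 and 0.234, limma). With slide as a block the 2 calls were lost (adjusted p = 0.0522 and 0.0588, limma), and without smoke replicates 2 and 3 of 4 weeks they were lost too (0.202 and 0.193). Leaving out any 1 of 14 arrays ended the call of miR-99a-5p (adjusted p = 0.0501 to 0.0895, limma). These were control replicates 1 and 4 and smoke replicates 2 and 3 of 4 weeks, control replicates 1, 2 and 3 and smoke replicates 2 and 3 of 8 weeks, and control replicates 2, 3 and 4 and smoke replicates 1 and 2 of 12 weeks. The same 14, control replicate 3 of 4 weeks and control replicate 4 of 8 weeks ended that of miR-100-5p (adjusted p = 0.0568 to 0.0933, limma). miR-125b-5p was called without smoke replicate 1 or 4 of 4 weeks or smoke replicate 4 of 8 weeks (adjusted p = 0.0352, 0.0284 and 0.0324, limma), and miR-99b-5p without smoke replicate 4 of 4 weeks (0.0455), in fits that called 12.5%, 23.8% and 24.5% of tested miRNAs.

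The effect at 8 weeks minus that at 4 weeks was -0.71 ± 0.17 for miR-99a-5p, -0.73 ± 0.18 for miR-100-5p and -0.78 ± 0.22 for miR-125b-5p, all 3 called (adjusted p = 0.0157, 0.0157 and 0.0293, limma), against 14.7% of tested miRNAs. That of miR-99b-5p was -0.60 ± 0.22 (adjusted p = 0.0638, limma) and that of miR-125a-5p -0.25 ± 0.24 (adjusted p = 0.428, limma). For 12 weeks minus 4 weeks only miR-99a-5p of the members was called (-0.64 ± 0.18, adjusted p = 0.0466, limma), against 4.03% of tested miRNAs, while the other 4 lay between -0.66 and -0.59 (adjusted p = 0.0535 to 0.0894). For 6 weeks minus 4 weeks 0 of 273 miRNAs were called in limma (58 at an unadjusted p under 0.05), and 2 of the 5 members had an unadjusted p under 0.05. These contrasts share the 4 weeks arrays.

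Within one arm, no member was called as differing between durations. Among smoke lungs the adjusted p in limma ran between 0.168 and 0.672, with 3.3% of tested miRNAs called, and among control lungs between 0.111 and 0.244, with 6.96% called. Among the 8 groups, miR-99a-5p averaged lowest in smoke at 8 weeks (0.27 ± 0.27, SD, n = 4) and highest in control at 8 weeks (0.70 ± 0.02, n = 4). miR-100-5p had the same lowest and highest groups, -1.49 ± 0.26 and -1.05 ± 0.05. miR-125b-5p was lowest in smoke at 8 weeks (2.56 ± 0.27) and highest in control at 12 weeks (3.04 ± 0.03). For miR-99b-5p the lowest group was control at 4 weeks (-1.82 ± 0.17) and the highest smoke at 4 weeks (-1.38 ± 0.43). Between neighbours in these orders the gap exceeded the larger SD once each for miR-99a-5p, miR-100-5p and miR-125b-5p, in each case between a lower group of 3 (smoke at 8 weeks, smoke at 12 weeks and control at 4 weeks) and the others, and never for miR-99b-5p or miR-125a-5p.

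The ratio of 2 members on the same array does not depend on the scaling between arrays, so all 10 pairs were computed. The 4 pairs that share a seed are described, and the pair of the 2 chromosome 17 members at 8 weeks. This comparison was added after the values were seen, and no test was made of the ratios. Whether a ratio followed the brightness of the array was not tested. At 8 weeks the 75th percentile before scaling was 1229 to 1681 on smoke arrays, against 2337 to 3472 on control arrays. As background, smoke and control did not overlap in either direction for 28.9%, 22.8%, 25.3% and 48.2% of the 37128 pairs of tested miRNAs at 4, 6, 8 and 12 weeks.

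The log2 ratio of miR-99b-5p over miR-99a-5p was -1.96, -2.03, -2.02 and -2.04 in smoke lungs at 6 weeks, against -2.15, -2.19, -2.14 and -2.11 in control lungs. At 8 weeks it was -1.97, -1.99, -2.10 and -1.98 in smoke lungs, against -2.22, -2.31, -2.35 and -2.22 in control lungs. At 12 weeks it was -1.89, -1.90 and -1.96 in smoke lungs, against -2.13, -2.13, -2.09 and -2.10 in control lungs. At all 3 durations every smoke array was above every control, which held in one direction at 3 or more durations for 13.4% of all pairs. It held at 3 durations with the mean of all probes and the scanner's own sum too, but at 2 with the dimmer probes, with normexp and in the deposited table. At 4 weeks it was -2.07, -1.83, -1.89 and -2.18 in smoke lungs, against -2.12, -2.08, -2.11 and -2.25 in control lungs, and the groups overlapped. The mean difference was 0.15, 0.14, 0.27 and 0.20 at the 4 durations and 0.19 on average. With the dimmer probes it averaged 0.17 and in the series table that the authors deposited 0.20. After normexp background correction, which started from the spots' median signals in place of the processed signal and moved the median of all miRNAs at 4 weeks to -0.76, it averaged 0.09, with -0.30 at 4 weeks. The ratio of miR-99b-5p over miR-100-5p was higher in smoke by 0.15, 0.11, 0.29 and 0.18 at the 4 durations, and the groups were apart at 8 and 12 weeks.

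The ratio of miR-125a-5p over miR-125b-5p was -2.38, -2.27, -2.57 and -2.60 in smoke lungs at 8 weeks, against -2.91, -3.00, -2.98 and -3.05 in control lungs. All 4 smoke arrays were above all controls, by 0.53 on average (0.44 with the dimmer probes and 0.56 after normexp). At 4, 6 and 12 weeks the groups overlapped and the mean differences were 0.00, 0.06 and 0.07. The ratio of miR-99a-5p over miR-100-5p differed by -0.03 to 0.02 between smoke and control lungs over the 4 durations, and its SD over all 31 arrays was 0.04, the smallest of the 10 pairs. At 8 weeks, in both seed families, the ratio of the chromosome 17 member to the others was higher in every smoke than every control array. The 2 chromosome 17 members also differed from each other at 8 weeks. The ratio of miR-99b-5p over miR-125a-5p was lower in every smoke than in every control array, with a mean difference of -0.26. Smoke and control did not overlap for 25.3% of all pairs of tested miRNAs at 8 weeks.

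**Figure D3:**
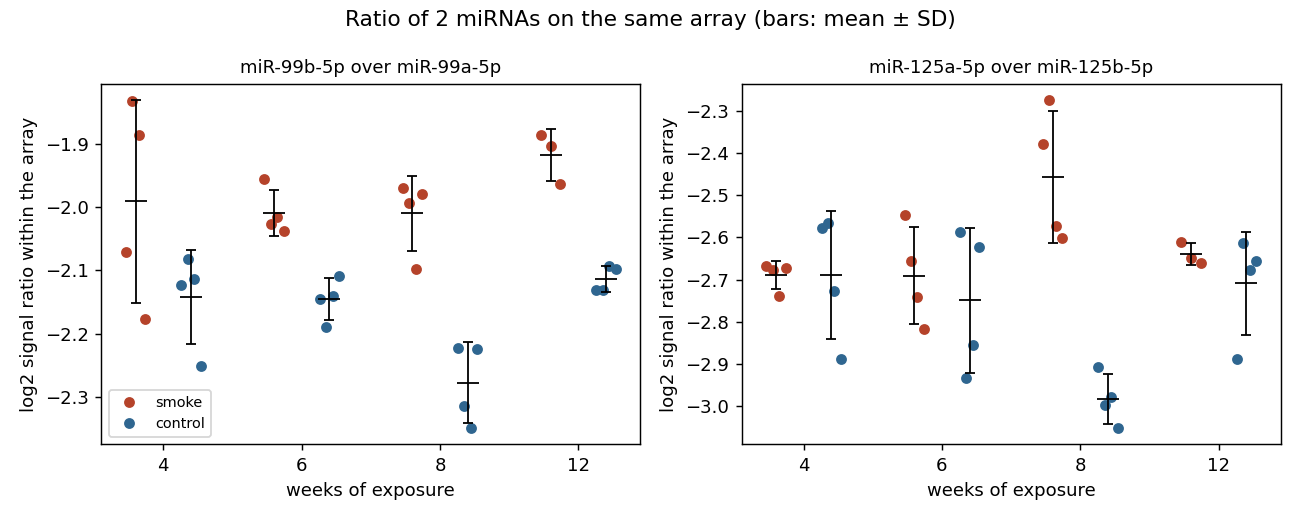
Log2 ratio of 2 miRNAs on the same array (vertical axis) by weeks of exposure, smoke left of control, for miR-99b-5p over miR-99a-5p and miR-125a-5p over miR-125b-5p. Points are arrays, bars are mean ± SD; the first ratio is higher in every smoke than in every control array at 6, 8 and 12 weeks, the second at 8 weeks.

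The let-7 partners of the 3 clusters, let-7c-5p, let-7a-5p and let-7e-5p, are known for restraining proliferation and keeping cells differentiated. At 4 weeks 1 of the 3 rose, let-7a-5p by 0.42 ± 0.16 (adjusted p = 0.0435, limma), while let-7c-5p and let-7e-5p differed by 0.38 and 0.40 without passing. At that duration 28.2% of all tested miRNAs were called higher in smoke, and the median difference of all tested was 0.17. At 6, 8 and 12 weeks and averaged, 0 of 3 passed, and at 8 weeks the differences were -0.16 for let-7c-5p, -0.10 for let-7e-5p and -0.03 for let-7a-5p. The median of the 3 was 0.40, -0.01, -0.10 and -0.22 at 4, 6, 8 and 12 weeks. let-7a-5p and let-7c-5p also come from genes outside these clusters, so their signals are not those of the clusters alone.

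Of the 6 other let-7 guide arms, 4 rose at 4 weeks, let-7d-5p by 0.43, miR-98-5p by 0.43, let-7f-5p by 0.38 and let-7g-5p by 0.25 on the log2 scale (adjusted p = 0.0318, 0.00797, 0.0195 and 0.0212, limma). As background, 28.2% of all tested miRNAs were called higher in smoke at 4 weeks. let-7i-5p rose at 6 weeks (0.31 ± 0.08, adjusted p = 0.0177, limma) and averaged (0.19 ± 0.04, 0.00123), as did miR-98-5p averaged (0.16 ± 0.06, 0.0436). None of the 6 passed at 8 or 12 weeks.

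Of the 11 opposite arms of the member and let-7 hairpins, 6 were on the array and 3 were tested. let-7a-1-3p fell by 0.47 at 6 weeks (adjusted p = 0.0240, limma) and by 0.27 averaged (adjusted p = 0.00267, limma). Of all tested miRNAs, 8.06% were called at 6 weeks and 27.8% averaged. This arm comes from Mirlet7a-1 on chromosome 13, outside the 3 clusters. let-7a-2-3p, the arm of the chromosome 9 cluster, was not on the array. miR-125a-3p was detected on 27 arrays and miR-99b-3p on 10, and neither passed in any comparison. miR-125b-1-3p and miR-125b-2-3p, which would separate the 2 miR-125b loci, were detected on no array, so the share of each locus could not be read.

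Of the 4 arms of the miR-10a and miR-10b hairpins, 3 were tested. miR-10a-5p, the relative of miR-100-5p printed above, which is encoded among the Hox genes, rose at 4 weeks (0.39 ± 0.16, adjusted p = 0.0499, limma) and differed by -0.46 ± 0.17 at 12 weeks (adjusted p = 0.0899, limma). None of the 3 passed at 6, 8 or 12 weeks or averaged.

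After subtraction of the group means over the 31 arrays, miR-99a-5p and miR-100-5p were each other's closest of 206 other miRNAs (Pearson r = 0.98). Outside the members, miR-99a-5p was most like miR-361-5p, miR-26a-5p and miR-674-3p (0.95, 0.94 and 0.94) and miR-100-5p like miR-425-5p, miR-25-3p and miR-15b-5p (0.95, 0.94 and 0.93). miR-99b-5p was most like miR-92a-3p, miR-151-5p and miR-652-3p (0.97, 0.96 and 0.96). miR-125a-5p was most like miR-26a-5p, miR-92a-3p and miR-29b-1-5p (0.94 for each) and miR-125b-5p like miR-674-3p, miR-361-5p and miR-30c-5p (0.96, 0.96 and 0.95). These values describe arrays that share scaling and slides, and the median r of a member to all others was 0.60 to 0.66. Without subtraction of the group means, the members' r with the leading component was 0.73 to 0.96. With the group means subtracted, the let-7 miRNA of a member's own cluster ranked lower than the non-members named here, at 38 to 63 of 206. As measured, it ranked at 19 to 58.

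Marker miRNAs of other cells were read beside these results, and their part in them was not tested. At 8 weeks, where miR-99a-5p and miR-100-5p fell, 0 of 5 smooth muscle and fibroblast, 0 of 2 endothelial, 0 of 5 epithelial, 0 of 3 multiciliated, 0 of 7 leukocyte, 0 of 3 striated muscle, 0 of 2 erythroid and 0 of 1 liver markers passed. Every smoke array lay below every control for the smooth muscle miRNAs miR-143-3p (-0.14 ± 0.08, adjusted p = 0.298, limma) and miR-145-5p (-0.36 ± 0.19, adjusted p = 0.236, limma), and 3 of 4 did for the lymphocyte miRNA miR-150-5p (-0.55 ± 0.24, adjusted p = 0.165, limma). Of all 273 tested miRNAs, 12.1% had every smoke array below every control. Of the other smooth muscle and fibroblast markers, miR-199a-3p differed by -0.01, miR-199a-5p by -0.09 and miR-214-3p by 0.08. Of the other leukocyte markers, miR-223-3p differed by 0.43, miR-155-5p by 0.46, miR-146a-5p by 0.08 and miR-342-3p by 0.09. The remaining leukocyte markers, miR-142-3p and miR-142-5p, differed by -0.25 and -0.17. The summed smooth muscle and fibroblast signal ran between 5.54 and 6.55 in smoke lungs, against 6.18 and 6.40 in control lungs, in units of the array's 75th percentile. The endothelial sum ran between 26.2 and 31.9 in smoke lungs, against 31.6 and 32.4 in control lungs. The leukocyte sum ran between 8.31 and 14.5 in smoke lungs, against 9.94 and 10.1 in control lungs, and the striated muscle sum between 1.34 and 6.96, against 1.42 and 1.74. Without the 3 arrays highest in muscle miRNAs the 8 weeks differences were -0.36 for miR-99a-5p and -0.37 for miR-100-5p, no longer called (adjusted p = 0.101 and 0.103, limma).

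At 4 weeks, where miR-99b-5p rose, 3 of 5 epithelial markers rose, 4 of 7 leukocyte markers rose and 2 fell, 1 of 5 smooth muscle and fibroblast markers rose, and 1 of 3 multiciliated, 2 of 3 striated muscle and 1 of 2 erythroid markers fell. Among all tested miRNAs 39.6% were called at 4 weeks, 28.2% as higher in smoke. The other 2 epithelial markers went the other way without passing, miR-141-3p by -0.93 and miR-200a-3p by -0.28. The epithelial sum ran between 6.74 and 8.44 in smoke lungs, against 5.89 and 6.60 in control lungs. The leukocyte sum ran between 8.04 and 10.74 in smoke lungs, against 10.6 and 11.5 in control lungs, and the striated muscle sum between 1.63 and 1.85, against 1.80 and 6.66. At 6 weeks 1 epithelial, 1 multiciliated and 1 leukocyte marker rose, and at 12 weeks the same number of each rose and 1 of 2 endothelial markers fell. Among all tested miRNAs 8.06% were called at 6 weeks and 9.52% at 12 weeks. The liver marker miR-122-5p was detected on 11 arrays and the muscle marker miR-206-3p on 4, while every epithelial and endothelial marker was detected on all 31.

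**Figure D4:**
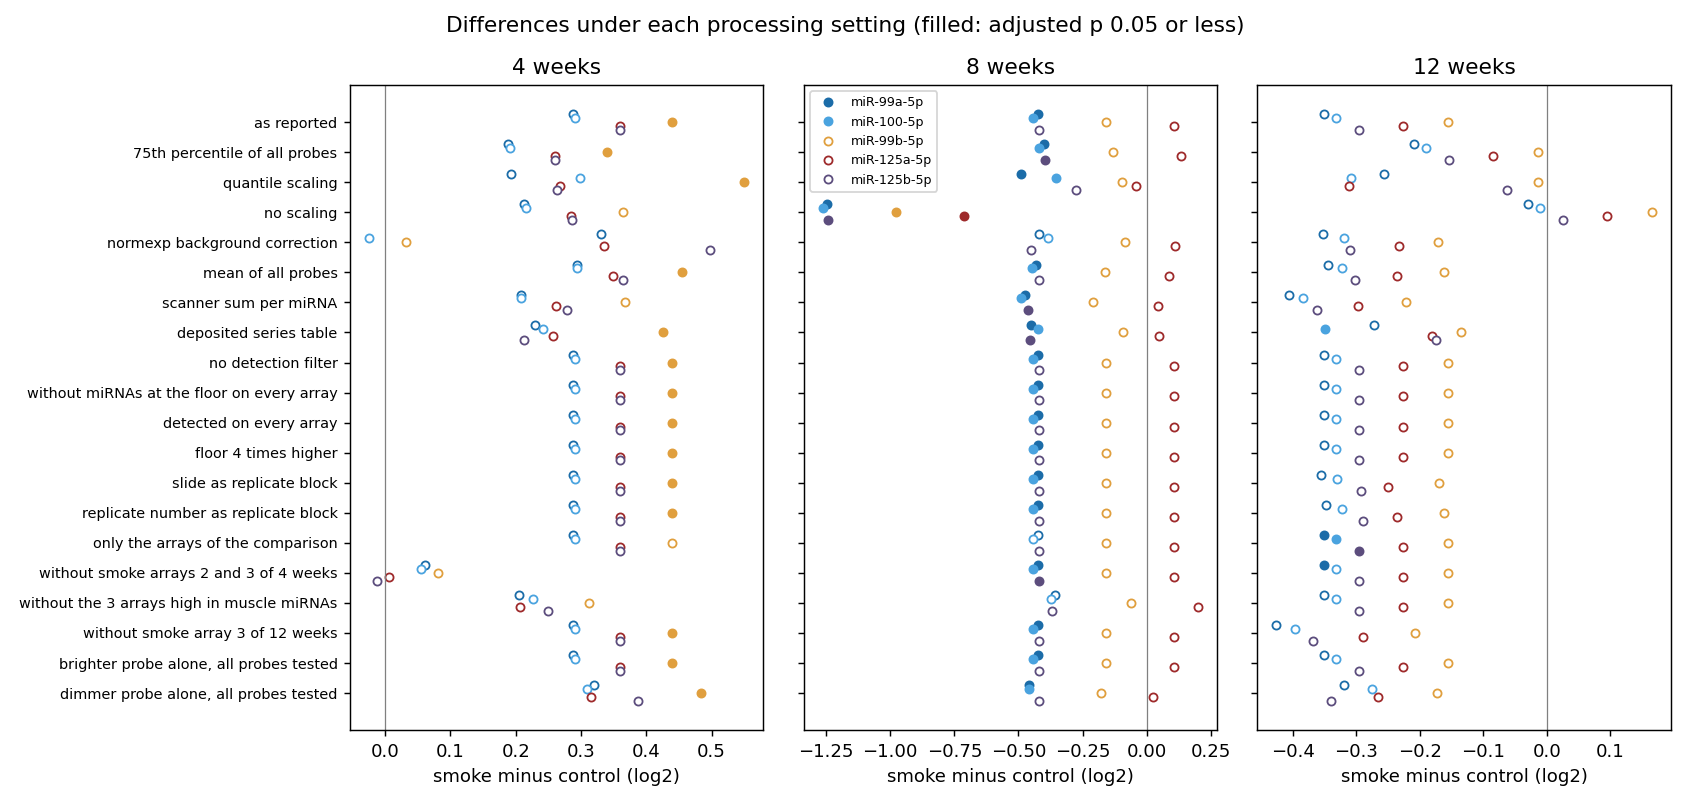
Difference in log2 scaled signal, smoke minus control (horizontal axis), of the 5 miRNAs at 4, 8 and 12 weeks under each way of processing the arrays (rows, from top). Filled points were called; at 8 weeks miR-99a-5p and miR-100-5p lie below 0 in every row and were called in 16 of 19 alternatives, and miR-99b-5p at 4 weeks in 13 of 19.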

How the data were processed

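Per the labels, total lung RNA was labelled with Cy3 for single-colour Agilent miRNA arrays. Per the file headers, the scanner files the authors deposited came from Feature Extraction 10.7.3.1, whose processed signal is an intensity on a linear scale. The authors also deposited a series table of log2 values, whose scaling no source used here gives. Control spots and outlier spots (297 to 655 per array) were left out and spots of a probe averaged. Each array was divided by its own 75th percentile, taken over 385 probes found everywhere, floored at a log2 of -6.74, and read through the brightest probe per miRNA. Testing took in a miRNA detected in at least 1 group on 75% of its arrays, with 50% of its spots well above background. limma 3.58.1 in R 4.3.3 fitted 1 mean per group (23 residual degrees of freedom), with adjusted p over 273 miRNAs. The number of arrays limits the precision. The members, the lists of partners, relatives and cell markers and the tests were chosen with earlier results of these data known. Named were the 5 members, listed miRNAs that passed or up to 4 of a list, and the 3 non-members most like each member. Alternatives were other scalings, background corrections and filters, slide as a block, and single arrays left out. Same-slide smoke and control arrays deviated together (r over 0.1) in 9 of 15 pairs (median r 0.18). By replicate number the median r was 0.08. The reported fit did not pair the arrays by slide or by number, and each was tried as a block.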

Additional observations from a re-analysis of the deposited data

Results flagged for a closer look

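In 3 of 35 groups of 4 arrays, 1 array lay far from the other 3 by Dixon's limit of 0.829, which chance passes in about 1 of 20 groups. miR-99b-5p was at -1.35 in smoke replicate 2 of 6 weeks, against -1.56 to -1.53 in the other smoke arrays. miR-125a-5p was at 0.12 in control replicate 1 of 12 weeks (0.115), against 0.38 to 0.42 in the other controls. miR-125b-5p was at 3.05 in control replicate 4 of 8 weeks, against 2.95 to 2.97 in the other controls. The smoke effect differed between durations in limma for miR-99a-5p (adjusted p = 0.0363) and miR-100-5p (adjusted p = 0.0412).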

How the results depend on the processing

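Of 750 values recomputed for single members under other settings, 662 kept their direction and side of the threshold, 28 lost a call, 42 gained one and 18 changed sign, and with 1 array left out 1162 of 1240 kept both. The small signal differences, the number of arrays and the scaling limit these results, and no cause of a change was tested.

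Changes of sign concerned differences that were not called as reported. With the 75th percentile of all probes, the 6 weeks difference was 0.010 for miR-99b-5p and 0.0070 for miR-125a-5p (0.0088 with its dimmer probe). With quantile scaling miR-125a-5p was at -0.042 at 8 weeks and -0.042 averaged. Without scaling it was at -0.71 at 8 weeks, 0.094 at 12 weeks and -0.090 averaged, miR-99b-5p at 0.17 at 12 weeks and -0.12 averaged, and miR-125b-5p at 0.025 at 12 weeks; the median of all miRNAs then moved to -0.86 at 8 weeks and 0.20 at 12 weeks. With normexp, run on the spots' median signals, where that median was -0.76 at 4 weeks, miR-100-5p was at -0.025 at 4 weeks and miR-99b-5p at -0.059 averaged. With the scanner's sum per miRNA the averaged values were -0.061 for miR-99b-5p and -0.041 for miR-125a-5p. Without smoke arrays 2 and 3 of 4 weeks they were -0.061 and -0.032, and miR-125b-5p was at -0.013 at 4 weeks. With 1 array left out, the 6 weeks difference ran from -0.085 to 0.065 for miR-99b-5p, -0.14 to 0.11 for miR-125a-5p and -0.18 to 0.027 for miR-125b-5p, and the averaged one of miR-99b-5p from -0.014 to 0.062.

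Counts of the 5 members called were 1, 0, 2, 0 and 0 at 4, 6, 8 and 12 weeks and averaged, 2 for the effect differing between durations, and 0 for each arm. The shares of all tested miRNAs were 39.6%, 8.06%, 11%, 9.52%, 27.8% and 7.33%, then 6.96% among control and 3.3% among smoke mice. At 4 weeks 0 was called without scaling, with normexp, with the scanner's sum, with only the arrays of the comparison, without the 3 arrays high in muscle miRNAs, and when smoke arrays 2 and 3 of that duration were left out. Of all tested miRNAs these fits called 1.47%, 16.8%, 30.8%, 4.48%, 6.96% and 6.23%, in that order. At 8 weeks 0 was called with normexp, with only the comparison's own arrays and without the muscle-high arrays, and 5 without scaling. At 12 weeks 1 was called in the deposited table (17.2% of all tested), 3 with only its own arrays (36.5%). It was 1 when smoke arrays 2 and 3 of 4 weeks were left out (16.8%). Averaged, 1 was called with quantile scaling, 2 with the scanner's sum, 3 in the deposited table, 1 without smoke array 3 of 12 weeks, and 3 when smoke arrays 2 and 3 of 4 weeks were left out. The shares of all tested miRNAs there were 35.7%, 40.3%, 41%, 28.2% and 36.6%. For the effect differing between durations, 0 was called with the 75th percentile of all probes, normexp and the scanner's sum, without the muscle-high arrays, and again when smoke arrays 2 and 3 of 4 weeks were left out, 1 with quantile scaling or the dimmer probe, and 5 without scaling. The fits with 0 called 3.69%, 0%, 5.49%, 3.3% and 6.23% of all tested miRNAs. Quantile scaling called 6.99% of all, and no scaling 48.7%. Among control mice 5 were called with the 75th percentile of all probes, 5 without scaling, 3 with only their own arrays, 1 in the deposited table and 2 when smoke arrays 2 and 3 of 4 weeks were left out, and among smoke mice 1 in the deposited table. Of all tested miRNAs these fits called 31.7%, 55.3%, 37.6%, 12.8% and 24.2%, and 7.69% among smoke mice. With 1 array left out the counts ran from 0 to 5 at 4 weeks, 0 to 3 at 8 weeks, 0 to 2 averaged, 0 to 4 for the effect differing between durations and 0 to 1 among control mice. Of all 273 tested miRNAs 37 to 150, 22 to 41, 70 to 91, 10 to 67 and 7 to 43 were called there.

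With slide, or with replicate number, as a replicate block, 0 members were called as differing in effect between durations, and the block ended or made no other call of a member. By number, r was over 0.1 in 7 of 15 pairs. The count of all miRNAs called moved by over 1.5 times under some settings, which tested 197 to 298 miRNAs, since a miRNA at the floor on every array of an alternative fit has no spread and was left out. Leaving the 2 such miRNAs out of the reported fit ended or made no call of a member. The count ran from 4 to 107 at 4 weeks (108 as reported), 2 to 33 at 6 weeks (22), 3 to 203 at 8 weeks (30), 4 to 96 at 12 weeks (26), 12 to 112 averaged (76), 0 to 133 for the effect differing between durations (20), 3 to 151 among control mice (19) and 0 to 21 among smoke mice (9).

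The averaged ratio of miR-99b-5p over miR-99a-5p ran from 0.09 (normexp) to 0.20 over 5 settings, all above 0, against 0.19 as reported; smoke and control were apart at 2 or 3 durations.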
